A study of Caenorhabditis elegans with 10 samples.

Results

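The 9 genes described here encode the myosin-containing (thick) filament of the body wall muscle of the nematode Caenorhabditis elegans and the proteins that hold or fold it. They were taken by name from the count tables as myosin heavy and light chains, paramyosin, giant kinases and the myosin chaperone, a choice by function made with earlier results of these data known. All 9 were among the 20222 genes in the tables, and all 9 passed the filter on low counts that left 12499 genes for testing. RNA was read in whole dauers, the arrested larval stage, of chd-7(gk290);daf-2(e1370) (chd-7;daf-2, called the double mutants, 5 libraries) and of daf-2(e1370) alone (called daf-2, 5 libraries). All 10 libraries thus carry the daf-2 insulin receptor mutation, and the double mutants add the gk290 allele of chd-7, a chromatin remodeller gene. Eggs of both genotypes were synchronized and held at 25°C for 10 days before dauers were frozen. The comparison asks what chd-7(gk290) changes in dauers made by the daf-2 mutation. No wild-type or non-dauer animals are among the 10 libraries, and nothing in the labels tells separate cultures from repeat libraries of 1 culture. The p-values measure library-to-library spread, which may be technical.

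In body wall muscle, thick filaments are bundles of myosin laid over a paramyosin core, anchored at the M-line and pulling on actin thin filaments. A heavy chain folds with help from a dedicated chaperone and binds a regulatory and an essential light chain. The heavy chain MYO-3 lies at the middle of the worm filament and UNC-54 along its arms, and giant kinase proteins hold and regulate the array. Dauers keep a working body wall muscle, while the pharynx no longer pumps.

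The heavy chain genes are unc-54, on chromosome I from 14855901 to 14863482 (minus strand, 6.204 kb of exon), and myo-3, on chromosome V from 12226817 to 12234343 (minus strand, 6.104 kb). The paramyosin gene unc-15 lies on chromosome I from 7376604 to 7383197 (minus strand, 3.424 kb). The regulatory light chain genes mlc-1 (17459210 to 17460778, plus strand, 1.155 kb) and mlc-2 (17455792 to 17456586, minus strand, 0.641 kb) are neighbours on chromosome X, and the essential light chain gene mlc-3 lies on chromosome III from 5565025 to 5567382 (plus strand, 1.277 kb). The giant kinase genes are unc-22, which encodes twitchin, on chromosome IV from 11972697 to 12011007 (minus strand, 23.4 kb), and unc-89, which encodes an obscurin-like M-line protein, on chromosome I from 4035702 to 4090885 (plus strand, 25.9 kb). The myosin chaperone gene unc-45 lies on chromosome III from 491547 to 502625 (plus strand, 3.45 kb). Positions and exon lengths are those of WBcel235 in the Ensembl 115 annotation.

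Libraries held 7331885 to 14997608 reads assigned to genes. The 9 genes took 0.536% to 0.732% of these reads in double mutant libraries and 0.167% to 0.317% in daf-2 libraries, with no overlap. In whole animals, more muscle per dauer and more RNA per muscle cell cannot be told apart. Libraries of a genotype were not equally far apart. Their counts differed by a chi-square per degree of freedom of 3.83 between daf-2 replicates 4 and 5, 5.55 between double mutant replicates 1 and 2 and 6.58 between double mutant replicates 3 and 4, against 15.99 to 67.4 in every other pair. These close pairs were also summed and counted once. Reads summed over chd-7 overlapped between genotypes (234 to 283 CPM, counts per unit of library size after TMM scaling, in double mutants and 207 to 263 CPM in daf-2, adjusted p = 0.137 in edgeR's quasi-likelihood test). Such whole-gene counts cannot show whether gk290, a deletion, is present, and so are no check of the labels. The yolk gene vit-2 was at 8.71 CPM in double mutant replicate 4 and at 0.589 to 0.9997 CPM in its 4 sister libraries. In daf-2 it was at 55.7 and 52.9 CPM in replicates 2 and 3 and at 1.57 to 3.41 CPM elsewhere. Results are also given without these 3 libraries.

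Transcripts of 8 of the 9 genes were higher in double mutants at an adjusted p under 0.05, and none was lower, in edgeR's quasi-likelihood test with Benjamini-Hochberg adjustment over all 12499 genes, the source of every adjusted p below that names no other test. Of all tested genes, 17.9% were called higher and 18.3% lower. None of the 9 was lower at an unadjusted p under 0.05 or with DESeq2 or limma-voom. The exception was the chaperone gene unc-45, at 40.9 to 47.3 CPM in double mutants and 38.0 to 42.6 CPM in daf-2. The median log2 fold change was 1.19 over the 9 genes and -0.03 over all tested genes. In 7 of the 9 every double mutant library lay above every daf-2 library, which was so in 12.7% of tested genes. At least 2-fold higher and called were 7 of the 9 genes, all of the 8 but unc-89, against 7.74% of all tested genes. The same 8 genes passed with DESeq2, and 8 passed without the 3 libraries named above.

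**Figure D1:**
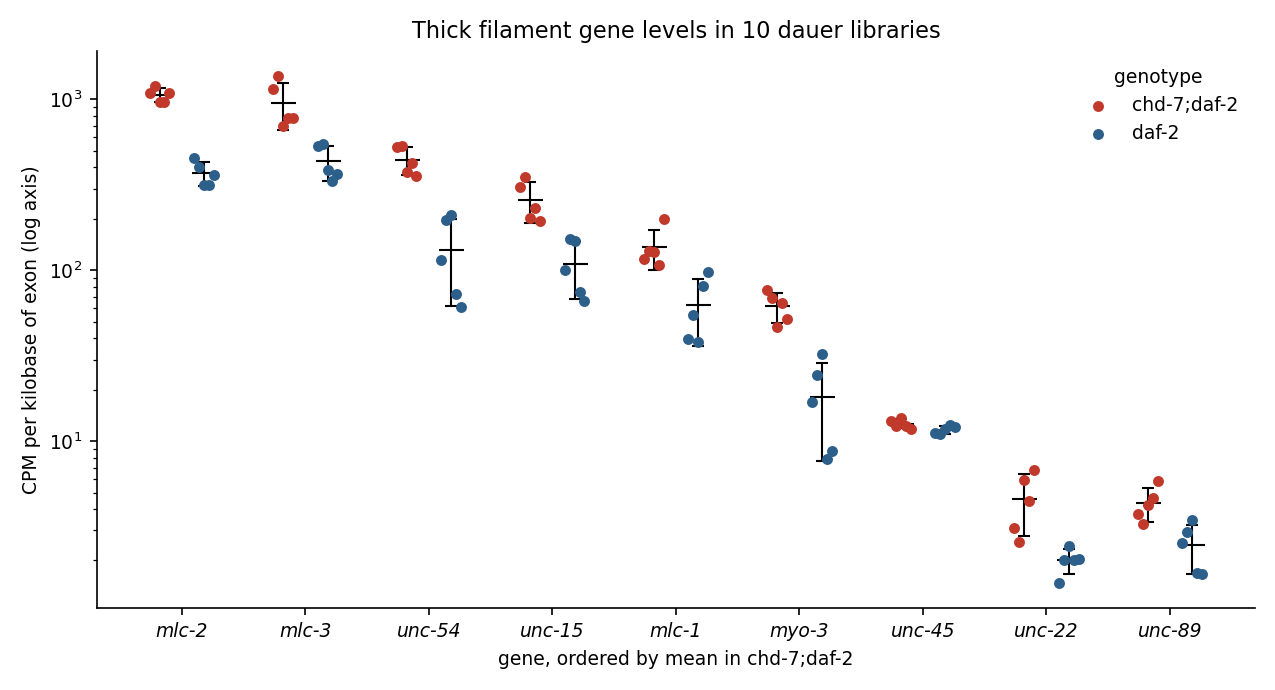
Level of each of the 9 genes in every library, in CPM per kilobase of annotated exon on a log axis. Points are libraries in order of replicate number, bars are the mean and SD of 5, with chd-7;daf-2 in red at the left of each pair and daf-2 in blue at the right. The colours are apart for 7 genes, touch for unc-89 and lie on top of each other for unc-45 (12.63 in chd-7;daf-2 and 11.7 in daf-2).

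The heavy chain gene unc-54 was read at 3258, 3322, 2332, 2637 and 2211 CPM in double mutant replicates 1 to 5, against 714, 1223, 1306, 452 and 379.6 CPM in daf-2 replicates 1 to 5. The lowest double mutant library lay 1.69 times above the highest daf-2 library. Its log2 fold change was 1.76 ± 0.33 (SE, adjusted p = 0.00258). Without the 3 libraries named above it was 2.42 ± 0.27, and the daf-2 replicates among them were the highest of their genotype for unc-54.

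The heavy chain gene myo-3 followed nearly the same order of libraries at a lower level. It was at 469, 419, 285, 389.9 and 316 CPM in double mutants, against 104, 148, 198, 48.18 and 53.1 CPM in daf-2 animals, a log2 fold change of 1.77 ± 0.37 (adjusted p = 0.00415), and 2.44 ± 0.32 without the 3 libraries. Both heavy chains varied more among daf-2 libraries, with coefficients of variation of 52.8% for unc-54 and 57.8% for myo-3, than among double mutant libraries, with 18.7% and 20.01%. This difference in spread was not tested. In both genes daf-2 replicates 2 and 3 were the highest and replicates 4 and 5 the lowest of their genotype.

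The ratio of unc-54 to myo-3 reads was 7.34 in double mutants and 7.58 in daf-2 (geometric means of 5), with overlapping ranges of 6.76 to 8.18 and 6.599 to 9.37. The difference in log2 ratio was -0.05 ± 0.11 (SE, exact two-sided permutation p = 0.683, also adjusted over 8 ratios). Per kilobase of exon, unc-54 made up 86.9% ± 1.25 (SD, n = 5) of the reads of the 4 muscle heavy chain genes in double mutants and 84.8% ± 2.89 in daf-2, and myo-3 made up 12.1% in double mutants (10.9% to 13.01%) and 11.5% in daf-2 (8.89% to 13.1%). The pharyngeal heavy chain genes myo-1 and myo-2 made up the rest, at 0.535% ± 0.486 and 0.556% ± 0.386 in double mutants and 1.82% ± 1.81 and 1.93% ± 1.84 in daf-2.

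Paramyosin RNA rose with a smaller fold than that of the heavy chain UNC-54, and the ratio of the 2 differed between genotypes. The gene unc-15 was at 1052, 1206, 696, 787 and 668 CPM in double mutants, against 344, 522, 506, 255 and 226 CPM in daf-2, and the genotypes did not overlap. The log2 fold change was 1.25 ± 0.26 (adjusted p = 0.00424). The ratio of unc-15 to unc-54 reads was 0.298 to 0.363 in double mutants and 0.388 to 0.596 in daf-2, again with no overlap, and the mean log2 ratio was lower by 0.62 ± 0.13 in double mutants. The exact permutation p was 0.00794, the smallest that 5 against 5 libraries allow, and 0.0317 adjusted over the 8 ratios. That call was lost (adjusted p = 0.0952) without any 1 of the 5 double mutant libraries, where the difference lay between -0.67 and -0.60 and the genotypes still did not overlap, and it held without any 1 daf-2 library.

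**Figure D2:**
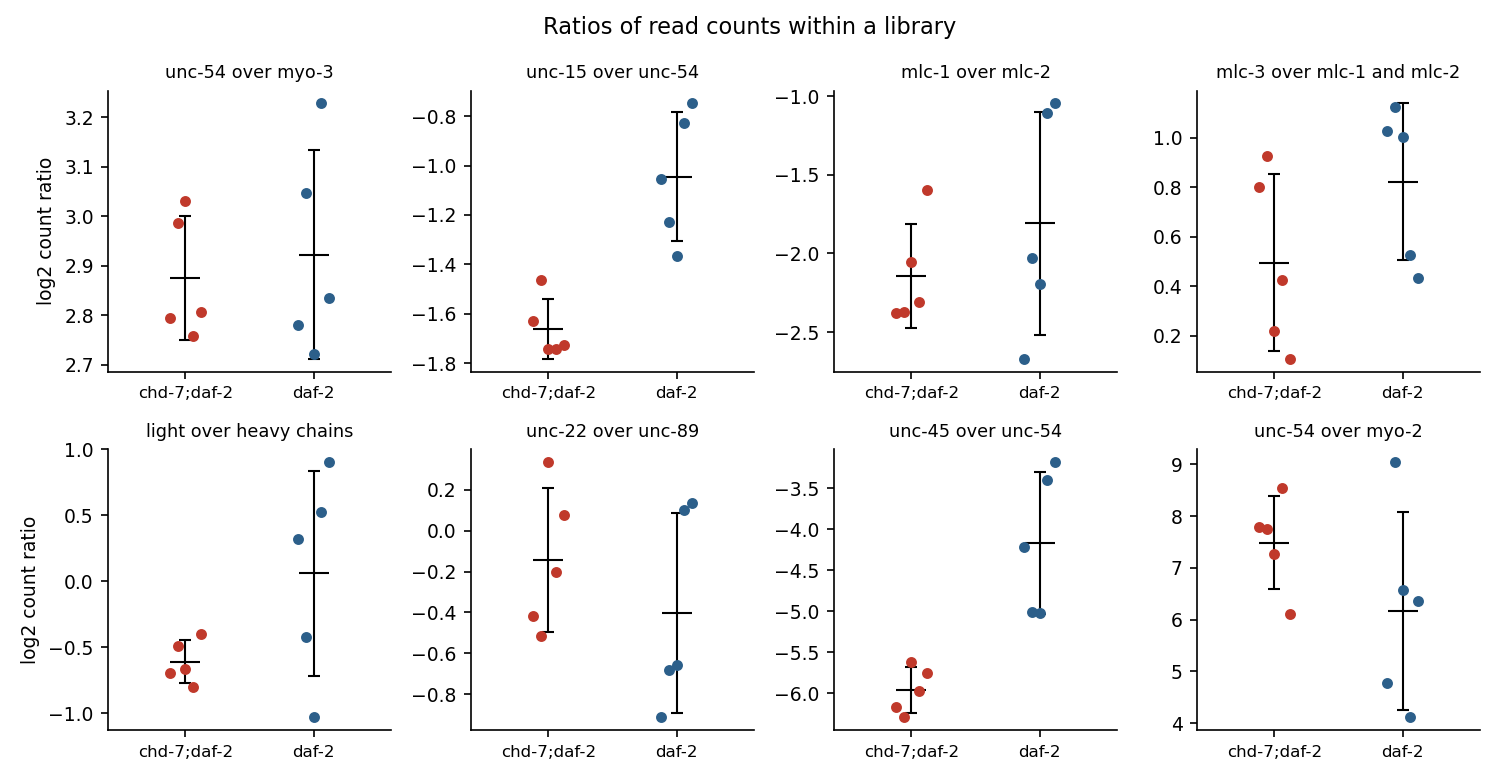
Log2 ratio of read counts of a pair of genes, or of summed genes, within each library. Points are libraries in order of replicate number, bars are mean and SD of 5, chd-7;daf-2 left in red and daf-2 right in blue, and each panel has its own axis. The genotypes are apart for unc-15 over unc-54 and for unc-45 over unc-54 and overlap in the other 6 panels.

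All 3 light chain genes rose. The regulatory light chain gene mlc-2 was at 703, 770.2, 617, 619 and 695 CPM in double mutants, against 291, 259, 201, 201 and 232 CPM in daf-2. Its lowest double mutant library was 2.12 times its highest daf-2 library, the widest gap of the 9 genes, and its log2 fold change was 1.52 ± 0.13 (adjusted p = 1.56e-05). The essential light chain gene mlc-3 was at 1461, 1748, 888, 997 and 994 CPM in double mutants, against 685, 702, 491, 424 and 465 CPM in daf-2, with a log2 fold change of 1.14 ± 0.22 (adjusted p = 0.00246).

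The neighbouring regulatory light chain gene mlc-1 was read at 135, 149, 148, 125 and 229.7 CPM in double mutants, against 45.7, 63.5, 44.0, 93.4 and 113 CPM in daf-2. The genotypes were apart by a factor of only 1.11 (lowest double mutant library over highest daf-2 library), and the log2 fold change was 1.13 ± 0.27 (adjusted p = 0.00906). Unlike the heavy chains, mlc-1 was highest in replicates 4 and 5 among daf-2 libraries. The ratio of mlc-1 to mlc-2 reads was 0.192 to 0.331 in double mutants and 0.157 to 0.485 in daf-2, with a log2 difference of -0.34 ± 0.35 (exact permutation p = 0.349, adjusted 0.399).

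The light chain ratios did not separate the genotypes. Reads of mlc-3 over those of mlc-1 and mlc-2 together were at a ratio of 1.08 to 1.903 in double mutants and 1.35 to 2.18 in daf-2 (log2 difference -0.33 ± 0.21, adjusted exact permutation p = 0.317). Reads of the 3 light chains over those of the body wall heavy chains were at 0.575 to 0.759 in double mutants and 0.4896 to 1.87 in daf-2 (log2 difference -0.67 ± 0.36, adjusted exact permutation p = 0.317). Without daf-2 replicate 3, the library with most unc-54 in its genotype, that difference was -0.94 ± 0.29 and passed (adjusted exact permutation p = 0.0423).

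The genes mlc-1 and mlc-2 encode closely similar proteins, and reads that align to several places are not counted. Such reads were 7.42% to 11.2% of the reads of double mutant libraries and 5.53% to 7.24% of those of daf-2 libraries, and their part in the mlc-1 and mlc-2 values was not tested. The exons of mlc-2 share 77 bases (12.01% of their length) with C36E6.2 on the other strand, while mlc-1 shares 1 base and unc-22 shares 93 (0.398%) with a gene on the other strand, and the other 6 genes share none with a gene in the tables.

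Among the giant kinases, unc-22 was at 72.8, 59.6, 138, 104 and 159 CPM in double mutants, against 34.7, 47.1, 56.9, 47.1 and 47.8 CPM in daf-2. The lowest double mutant library was 1.05 times the highest daf-2 library. The log2 fold change was 1.19 ± 0.25 (adjusted p = 0.00449). Here the spread was wider in double mutants, with a coefficient of variation of 39.5% against 16.9% in daf-2, and replicates 1 and 2, the highest double mutant libraries for unc-54, were the lowest for unc-22.

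The M-line gene unc-89 was at 97.1, 85.2, 109.6, 119.8 and 150.5 CPM in double mutants, against 65.5, 75.7, 89.7, 44.0 and 43.5 CPM in daf-2. Only daf-2 replicate 3 reached into the double mutant range. The log2 fold change was 0.82 ± 0.22 (adjusted p = 0.0141), with an adjusted p of 0.0547 when close pairs were summed, and both values were the largest of the 8 genes called. The ratio of unc-22 to unc-89 reads was 0.7003 to 1.26 in double mutants and 0.531 to 1.0993 in daf-2 (log2 difference 0.26 ± 0.27, exact permutation p = 0.349, adjusted 0.399).

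Among genes with over 5 kb of exon more were called higher than lower. Of 50 tested genes with over 10 kb of exon, unc-22 and unc-89 among them, 42% were called higher and none lower by edgeR, and the median log2 fold change was 0.32. Of 309 genes of 5 to 10 kb, which include unc-54 and myo-3, 22.01% were called higher and 9.06% lower, with a median of 0.13. Shorter genes showed no such order. The 3114 genes of 2 to 5 kb, unc-15 and unc-45 among them, had 17.3% called higher and 17.2% lower, with a median of -0.04. The 5434 genes of 1 to 2 kb, with mlc-1 and mlc-3, had 18.4% higher and 18.7% lower (median -0.03), and the 3436 genes under 1 kb, with mlc-2, had 16.9% higher and 19.8% lower (median -0.05). The part of length in the values of the giant kinase genes was not tested.

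The chaperone gene unc-45 was the member with no call. It was at 45.3, 42.4, 47.3, 42.2 and 40.9 CPM in double mutants, against 38.4, 38.0, 40.4, 42.6 and 41.9 CPM in daf-2, and the genotypes overlapped. Its log2 fold change was 0.11 ± 0.08 (adjusted p = 0.286), with a 95% interval of -0.06 to 0.29 that leaves out the estimate of each of the other 8 genes. Its coefficients of variation, 6.04% in double mutants and 5.11% in daf-2, were the smallest of the 9.

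The ratio of unc-45 to unc-54 reads was 0.0128 to 0.0203 in double mutants and 0.0309 to 0.1105 in daf-2, without overlap. With unc-45 at a log2 fold change of 0.11 ± 0.08 and unc-54 at 1.76 ± 0.33, this ratio mostly repeats the rise of unc-54. The mean log2 ratio was lower by 1.797 ± 0.41 in double mutants (exact permutation p = 0.00794, adjusted 0.0317). Without any 1 of the 5 double mutant libraries the difference was -1.88 to -1.71 with an adjusted p of 0.0952, and without the 3 libraries it was -2.36 ± 0.35, where 4 against 3 libraries left it at an adjusted p of 0.0762.

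Per kilobase of exon, levels in double mutants followed the order mlc-2 (1062 ± 101 CPM per kb, SD, n = 5), mlc-3 (954 ± 289.8), unc-54 (444 ± 83.1), unc-15 (258 ± 68.99), mlc-1 (136 ± 36.1), myo-3 (61.6 ± 12.3), unc-45 (12.63 ± 0.763), unc-22 (4.57 ± 1.803) and unc-89 (4.33 ± 0.962). In this order mlc-2 overlapped mlc-3, unc-15 overlapped mlc-1 and unc-22 overlapped unc-89, and the other neighbours were apart in all libraries. In daf-2 the order was mlc-3 (433 ± 102), mlc-2 (369 ± 60.4), unc-54 (131 ± 69.3), unc-15 (108 ± 40.4), mlc-1 (62.2 ± 26.2), myo-3 (18.1 ± 10.4), unc-45 (11.7 ± 0.596), unc-89 (2.45 ± 0.776) and unc-22 (2.0003 ± 0.338). There the overlapping neighbours were mlc-3 and mlc-2, unc-54 and unc-15, unc-15 and mlc-1, myo-3 and unc-45, and unc-89 and unc-22. Exon length covers all annotated transcripts of a gene, 16 for unc-89, 9 for unc-22 and 1 for unc-54. Reads that align to several places are left out of the levels but not of the lengths. The part of both in this order was not tested.

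Within a genotype the 9 genes did not rise and fall as a single set. After the genotype mean was taken from each log2 CPM value, the correlation over 10 libraries was 0.97 (Spearman 0.96) between unc-54 and myo-3, 0.96 (0.99) between unc-54 and unc-15 and 0.90 (0.95) between myo-3 and unc-15. The light chain genes mlc-2 and mlc-3 went together (0.82, Spearman 0.78). In the other direction, unc-54 and mlc-1 had a correlation of -0.76 (Spearman -0.72) and mlc-3 and unc-22 one of -0.81 (Spearman -0.77). Without the 2 libraries farthest from the median of the gene named first these values were 0.95, 0.95, 0.92, 0.80, -0.51 and -0.80. Over all 36 pairs the median was -0.03, and 17 pairs were above 0. These are descriptions over libraries that share scaling, 3 close pairs among them, and carry no p.

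**Figure D3:**
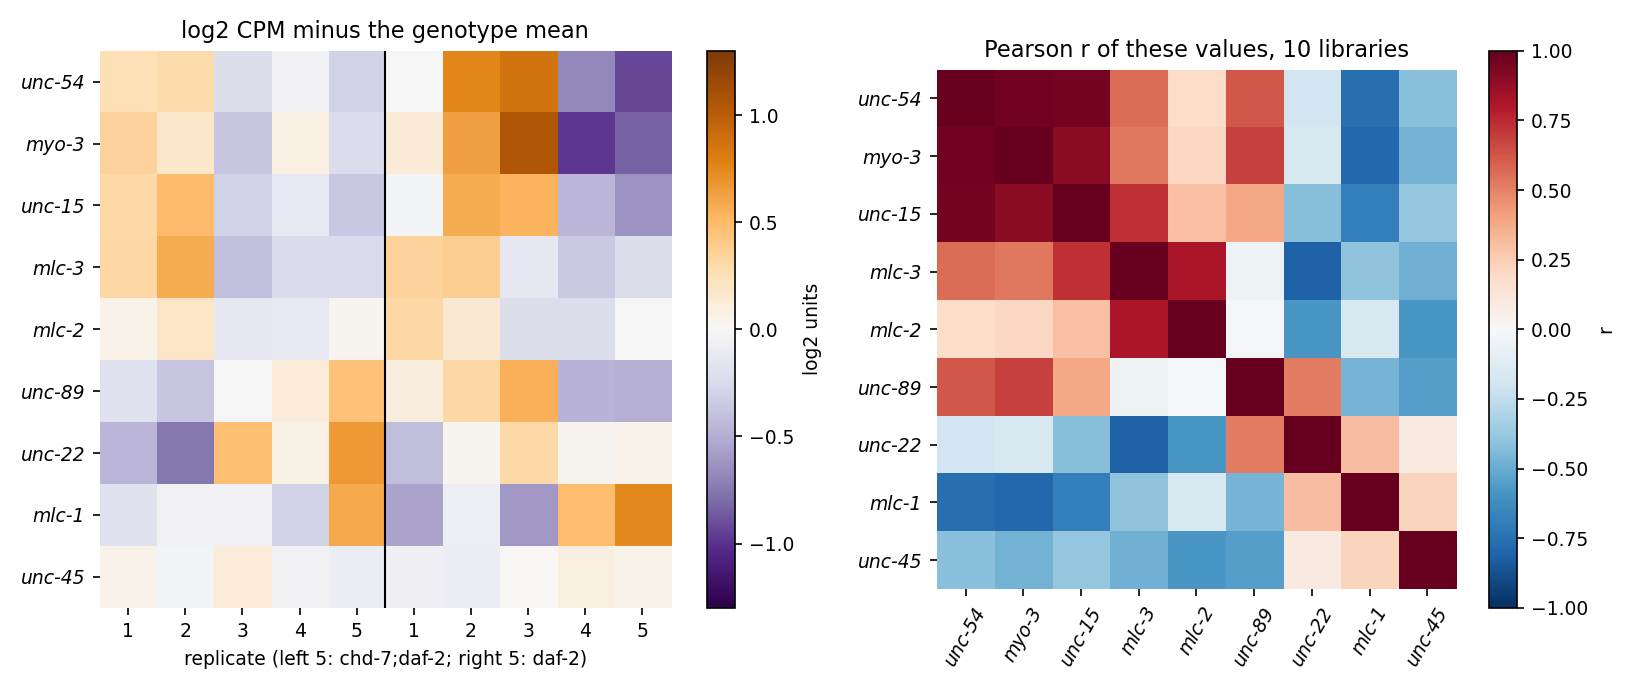
Left, log2 CPM of each gene in each library minus the mean of its genotype, with chd-7;daf-2 replicates left of the line and daf-2 replicates right of it. Right, the Pearson correlation of these values between genes over 10 libraries. The block of unc-54, myo-3 and unc-15 (0.90 to 0.97) is high in daf-2 replicates 2 and 3, while mlc-1 shows the opposite order there (-0.79 to -0.69 with that block).

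The summed level of 14 neuron markers, from 3101 to 3792 CPM in double mutants and from 2743 to 3881 CPM in daf-2, ran against the heavy chains within genotypes. Its correlation over 10 libraries was -0.87 with unc-54 (Spearman -0.83, -0.81 without the 2 farthest libraries), -0.90 with myo-3 and -0.86 with unc-15. It was 0.88 with mlc-1 (Spearman 0.85, 0.84 without the 2 farthest). Most of this sum came from egl-3 (means of 1302 CPM in double mutants and 1281 in daf-2) and egl-21 (966 and 851). The order was not particular to neuron markers. For the summed level of 12 dauer markers the correlation was -0.68 with unc-54, -0.69 with myo-3, -0.78 with unc-15 and 0.76 with mlc-1. The largest part of that sum was icl-1 (means of 2341 CPM in double mutants and 2813 in daf-2). The part of the make-up of the libraries in these orders was not tested.

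Among the other genes of the thick filament and M-line calls went both ways, at shares near those of all tested genes. Of 12 partner genes, all tested, 2 rose (16.7%) and 2 fell. Among all tested genes 17.9% were called higher and 18.3% lower. The median log2 fold change of the partners was 0.16. The rises were in unc-95, which encodes a LIM domain protein of M-lines and dense bodies (12.003 ± 2.48 CPM in double mutants and 6.94 ± 2.09 in daf-2, log2 fold change 0.79 ± 0.22, adjusted p = 0.0162, and 0.0687 with close pairs summed), and rsu-1, a gene for an integrin adhesion protein (30.6 ± 3.68 CPM in double mutants and 21.8 ± 1.34 in daf-2, 0.49 ± 0.10, adjusted p = 0.00451). The falls were in the M-line gene unc-98 (-0.58 ± 0.19, adjusted p = 0.0364) and the LIM domain gene lim-8 (-0.33 ± 0.12, adjusted p = 0.0436), and neither was called without the 3 libraries (adjusted p = 0.328 and 0.241) or when any 1 of 6 libraries was left out, namely double mutant replicates 1, 2 or 4 or daf-2 replicates 1, 2 or 3 (unc-98 also without double mutant replicate 5, lim-8 also without daf-2 replicate 4). The titin-like gene ttn-1 was at 110.1 ± 34.8 CPM in double mutants and 91.3 ± 17.1 in daf-2 (0.27 ± 0.21, adjusted p = 0.339), and unc-82, an M-line kinase gene, at 175 ± 23.1 CPM in double mutants and 167 ± 43.0 in daf-2 (adjusted p = 0.775).

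Of genes for partners of UNC-45 in folding and turnover 8 of 10 were not called, against 7976 of all 12499 tested genes. Of 10 such genes none rose and 2 fell in edgeR, and the median log2 fold change was -0.10 over the list. Among all tested genes 17.9% were called higher and 18.3% lower. At an unadjusted p under 0.05 the J-domain gene dnj-13 was higher (0.53 ± 0.199, adjusted p = 0.0535), and DESeq2 called it. The Hsp90 gene daf-21 was at 14426 ± 2841 CPM in double mutants and 13862 ± 3720 in daf-2 (0.06 ± 0.19, adjusted p = 0.8296). The ubiquitin ligase genes ufd-2 (-0.38 ± 0.12, adjusted p = 0.0288) and chn-1 (-0.42 ± 0.13, adjusted p = 0.02996), whose products act on UNC-45, were the falls. Each lost its call without any 1 of 5 libraries, double mutant replicates 1 and 2 and daf-2 replicate 3 in both, with daf-2 replicates 4 and 5 for ufd-2 and double mutant replicate 5 and daf-2 replicate 2 for chn-1. Without the 3 libraries the adjusted p was 0.0298 for ufd-2 and 0.185 for chn-1.

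The thin filament genes, which build the actin side of the sarcomere, were mostly called higher. Of 17, 16 were tested, 10 rose (62.5%) and 1 fell, and the median log2 fold change was 0.86. Among all tested genes 17.9% were called higher and 18.3% lower. The tropomyosin gene lev-11 was at 492 ± 96.7 CPM in double mutants and 226 ± 28.7 in daf-2 (1.12 ± 0.15, adjusted p = 0.000228), and the troponin T gene mup-2 at 227 ± 74.5 CPM in double mutants and 71.5 ± 17.3 in daf-2 (1.67 ± 0.24, adjusted p = 0.000429). The fall, in the tropomodulin gene unc-94 (-0.24 ± 0.09, adjusted p = 0.0474), was lost without the 3 libraries (adjusted p = 0.106) and without any 1 library other than double mutant replicate 3. The troponin I gene tni-3 was listed at 0 in all 10 libraries, as was the neuron gene unc-18, and whether these zeros come from the annotation or the counting was not tested, so no limit on its level is given.

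**Figure D4:**
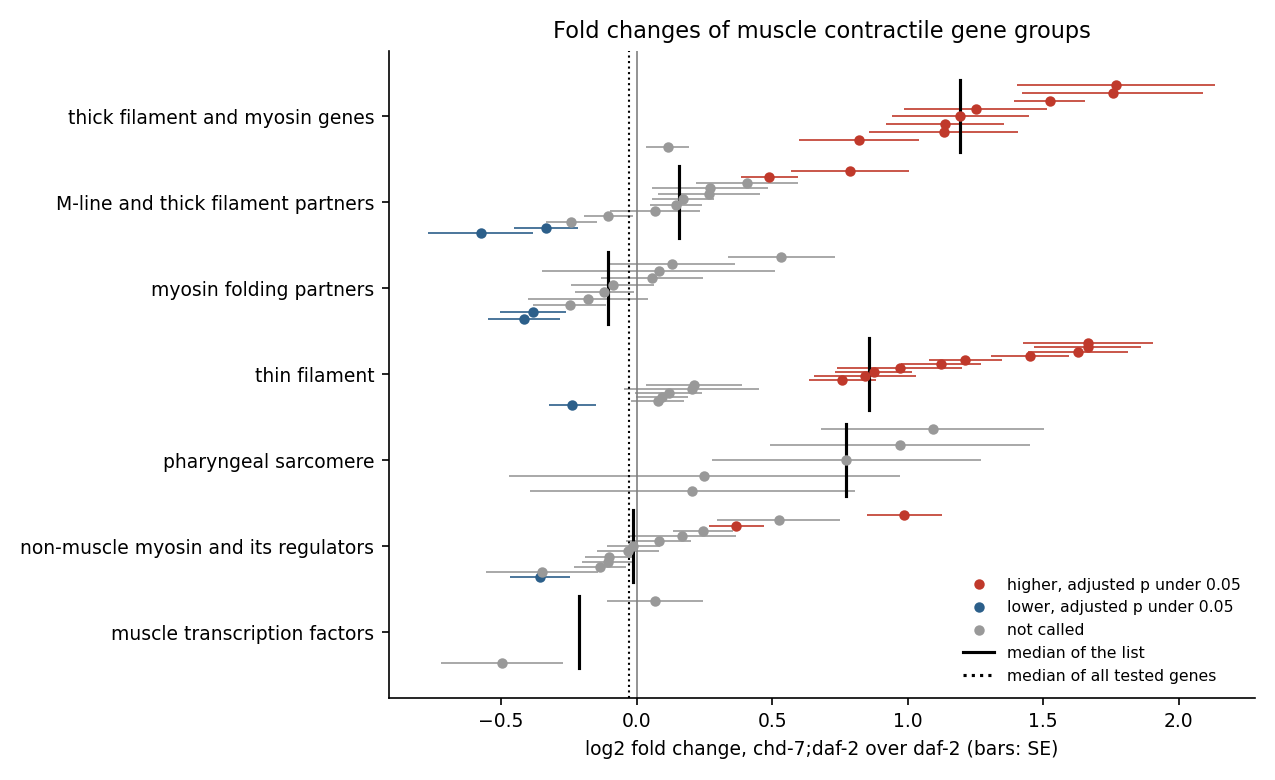
Log2 fold change of chd-7;daf-2 over daf-2 with its SE for each tested gene of 7 groups. Red points were called higher, blue points lower and grey points neither at an adjusted p under 0.05, solid lines are group medians and the dotted line is the median of all tested genes (-0.03). The thick filament and thin filament groups lie mostly to the right (medians 1.19 and 0.86), while the M-line partners (0.16), folding partners (-0.10) and non-muscle myosins (-0.01) lie around 0.

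Pharyngeal sarcomere genes had higher estimates with wide errors. None of the 5 was called in edgeR in either direction, while 36.2% of all tested genes were. The troponin I gene tni-4, at 14.4 ± 7.37 CPM in double mutants and 6.72 ± 3.602 in daf-2, was higher at an unadjusted p under 0.05 (adjusted p = 0.0577) and was called by DESeq2 but not by limma-voom. The summed level of the 5 was 30.5 to 121 CPM in double mutants and 8.84 to 79.5 CPM in daf-2. The ratio of unc-54 to the pharyngeal heavy chain gene myo-2 was 68.6 to 375 in double mutants and 17.3 to 530.3 in daf-2 (log2 difference 1.32 ± 0.95, adjusted exact permutation p = 0.3302), so a difference in change between these body wall and pharyngeal genes was not detectable in these libraries.

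Of myosin genes that act outside the sarcomere and their regulators 10 of 13 were not called, against 7976 of all 12499 tested genes. Of 13 non-muscle myosin genes and regulators, all tested, 2 rose (15.4%) and 1 fell, and the median log2 fold change was -0.01. Among all tested genes 17.9% were called higher and 18.3% lower. Their summed level was 1203 to 1334 CPM in double mutants and 1166 to 1313 CPM in daf-2. The unconventional myosin genes hum-6 (0.99 ± 0.14, adjusted p = 0.000327) and hum-1 (0.37 ± 0.10, adjusted p = 0.0159) rose, and hum-1 was not called without the 3 libraries (adjusted p = 0.0575) or with close pairs summed (0.0965). The light chain gene mlc-5 fell (-0.36 ± 0.11, adjusted p = 0.0265), a call lost without any 1 of 4 libraries (double mutant replicates 1 or 2, daf-2 replicates 4 or 5). The gene mlc-4, the non-muscle counterpart of mlc-1 and mlc-2, was at 144 ± 31.1 CPM in double mutants and 128 ± 37.1 in daf-2 (0.17 ± 0.199, adjusted p = 0.529).

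Of the muscle transcription factor genes, hlh-1, the worm MyoD gene, was at 29.6, 30.2, 29.1, 25.3 and 29.4 CPM in double mutants, against 47.4, 59.6, 45.4, 23.8 and 26.2 CPM in daf-2. In daf-2 the first 3 libraries were above all double mutant libraries and the last 2 within or below them. The log2 fold change of -0.495 ± 0.22 did not pass (adjusted p = 0.104, lower at an unadjusted p under 0.05, and not called by DESeq2 or limma-voom). Without daf-2 replicate 4, or without daf-2 replicate 5, 1 of the 2 tested genes of this list was called lower. The other 8 omissions of a single library gave none. The SRF family gene unc-120 was at 51.4 ± 4.66 CPM in double mutants and 48.99 ± 15.5 in daf-2 (0.07 ± 0.18, adjusted p = 0.783), and hnd-1 had 0 to 2 reads per double mutant library and 1 to 4 reads per daf-2 library and was not tested.

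Calls among other tissue markers differed from list to list, and the sums of germline, neuron and dauer markers overlapped between genotypes. Among all tested genes 17.9% were called higher and 18.3% lower. The summed level of 13 hypodermis markers was 2039 to 2376 CPM in double mutants and 1278 to 1522 CPM in daf-2. The largest part of this sum was lrp-1 alone (1258 ± 217 CPM in double mutants and 672 ± 81.7 in daf-2). Of the 13 tested, 7 were higher (53.8%) and none lower (none lower also at an unadjusted p under 0.05, or with DESeq2 or limma-voom). The summed level of 14 intestine markers was 663 to 842 CPM in double mutants and 1077 to 1199 CPM in daf-2. Of 12 tested, 2 were higher and 6 lower. Germline markers, 18 genes, summed to 74.3 to 620.4 CPM in double mutants and 588 to 1474 CPM in daf-2, with 12 lower and none higher (none higher also at an unadjusted p under 0.05, or with DESeq2 or limma-voom). Of 13 tested neuron markers 3 were higher (23.1%) and none lower in edgeR. At an unadjusted p under 0.05, and with DESeq2 and limma-voom, 1 was lower. Of 11 tested dauer markers 3 were lower in edgeR, 6 at an unadjusted p under 0.05, 4 with DESeq2 and 3 with limma-voom. None was higher in edgeR, at an unadjusted p under 0.05 or with DESeq2, while limma-voom called 1 higher. The summed level of the dauer markers was 3471 to 5365 CPM in double mutants and 4037 to 6078 CPM in daf-2. No marker list had a gene at 0 in all libraries except that of neurons, with 1. The part of tissue make-up in the muscle values was not tested.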

How the data were processed

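The authors deposited 1 table per library of whole-number read counts per gene, not normalized. Tools named in the submitters' processing notes include HTSeq 0.9.1, STAR 2.5.4a, DESeq2 1.20.0 and FastQC 0.11.5. Strand setting, annotation and genome build were not given in the sources used here, so reads of genes that overlap on opposite strands may not be told apart. HTSeq's tallies (no gene, 2.94% to 5.696% of reads; ambiguous, 2.07% to 2.30%; aligned to several places, 5.53% to 11.2%) stayed out. The test was run with edgeR 4.0.16 (R 4.3.3), using filterByExpr (minimum count 10, minimum total 15), TMM scaling, the robust quasi-likelihood F test on genotype with no covariate, Benjamini-Hochberg adjustment and a threshold of 0.05. The SE of a log2 fold change is its size over the square root of F. CPM use the TMM-scaled sizes, and log2 CPM a prior count of 2. Ratios use counts with 0.5 added and an exact two-sided permutation test over all 252 assignments of libraries. Exon lengths came from WBcel235 (Ensembl 115), matched by name for 12343 of 12499 tested genes, all 9 members included. No sequences were used here. The test was tested on simulated data. The members and gene lists were chosen with earlier results of these data known, so no list is independent evidence. All 9 members and the genes of the sarcomere, folding, non-muscle myosin and transcription factor lists could be named, called genes first, besides the 8 genes most like the members within genotypes. Other tissue lists are given as sums, and some genes with a large part of a sum are named. The alternatives tried were limma-voom with quality weights (limma 3.58.1), DESeq2 1.42.0, 3 other scalings, 2 other filters, a replicate block, and omission of 1 or 3 libraries. Summing close pairs was added after the data were seen.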

Additional observations from a re-analysis of the deposited data

Results flagged for a closer look

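In 1 of 34 groups of 5 values checked (each gene's CPM and each ratio, per genotype) a library stood apart, with a gap to its nearest neighbour of 77.2% of the group's range. Chance alone gives this in about 1 in 20 groups. It was mlc-1 in double mutant replicate 5, at 229.7 CPM against 125 to 149 CPM in the other double mutant libraries. Without that library the log2 fold change of mlc-1 was 0.94 ± 0.27 (adjusted p = 0.0221).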

How the results depend on the processing

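All 9 members kept their direction in 20 alternatives, and the 8 calls held in each, except that of unc-89 when close pairs were summed, which left 7 called. The log2 fold change ranged over these from 1.53 to 2.42 for unc-54, 1.54 to 2.44 for myo-3, 1.47 to 1.605 for mlc-2 and 0.08 to 0.13 for unc-45. With close pairs summed, 1330 genes were higher and 1301 lower, against 2240 and 2283. Upper quartile scaling gave 2074 higher and 2519 lower. Counts of list genes past the threshold changed as follows. For M-line partners, close pairs summed gave 1 higher and 0 lower, the replicate block 3 higher, DESeq2 and upper quartile scaling 3 lower, no filter 1 lower, total count scaling 1 lower, the 3 libraries left out 0 lower, and single libraries left out 0 to 2 lower. For folding partners, DESeq2 and the replicate block each gave 1 higher, total count scaling 1 lower, close pairs summed 0 lower, and single libraries left out 0 to 1 higher and 0 to 2 lower. For thin filament genes the 1 lower became 0 with RLE or total count scaling, no filter, the replicate block, the 3 libraries left out, close pairs summed, and 0 to 1 with single libraries left out, while the 10 higher became 9 with close pairs summed. For non-muscle myosins, total count scaling and close pairs summed gave 1 higher, limma-voom and the replicate block 3 higher and 2 lower, close pairs summed 0 lower, and single libraries left out 2 to 3 higher and 0 to 2 lower. For pharyngeal genes DESeq2 and the replicate block gave 1 higher, and single libraries left out 0 to 1. For transcription factors single libraries left out gave 0 to 1 lower, with the 1 lower without daf-2 replicate 4 or without daf-2 replicate 5. The cause was not tested.

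The ratios kept their direction, except unc-54 over myo-3, which without single libraries ran from -0.097 to 0.0295. Paired by replicate number (block, sign-flip test, smallest p 0.0625), unc-15 over unc-54 stayed at -0.62 and unc-45 over unc-54 at -1.797, each with an adjusted p of 0.167, which that design cannot bring under 0.05. Their differences were -0.76 and -2.36 without the 3 libraries (adjusted p = 0.0762 each) and -0.56 and -1.53 with close pairs summed (0.229 each). Leaving out single libraries gave -0.697 to -0.54 and -2.01 to -1.55, and -0.94 to -0.46 for light over heavy chains. Same-numbered libraries had deviations correlated at 0.305, 0.325, -0.192, -0.181 and 0.240, not every library was closest to its own number, and the numbers are not taken as pairs. With the replicate block 2495 genes were higher and 2269 lower, and 8 members were called.

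The members had 320 to 37123 reads per library, and the part of depth in their values was not tested. The pharyngeal genes had as few as 5 reads (tnt-4, daf-2), and hnd-1 was too low to test. The gene tni-3, listed at 0 in every library, was not tested, and the source of that 0 is not known.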

Other observations

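The genes whose within-genotype values were most like the mean of the 9 members (Pearson, 10 libraries, no p) were spp-15 (0.99), B0024.3 (0.97), K10D2.5 (0.97), F23B12.4 (0.97), T20D4.12 (0.97), C29E4.12 (0.97), ttr-15 (0.97) and ttr-26 (0.96). None of these is a muscle structural gene by name, and 1.06% of other tested genes reached 0.9. Of the 8, T20D4.12 was called, as higher (log2 fold change 1.71 ± 0.54, adjusted p = 0.0311).

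Because the members did not vary together, the same search was made for unc-54 and unc-22 alone, a choice made after their values were seen. Closest to unc-54 was vps-24 (0.99), which encodes an ESCRT-III subunit and had a log2 fold change of -0.16 ± 0.15 (adjusted p = 0.409). Closest to unc-22 was dig-1 (0.98), a gene for a giant extracellular matrix protein with 39.7 kb of exon, with means of 48.8 CPM in double mutants and 25.6 CPM in daf-2 (called higher, adjusted p = 0.0354, log2 fold change 0.94 ± 0.31). Also among the 8 closest to unc-22 were the giant genes cla-1 (presynaptic protein, 27.1 kb, 0.95) and anc-1 (nuclear anchorage protein, 25.9 kb, 0.93). Neither was called (cla-1, 0.497 ± 0.22, adjusted p = 0.1003, and anc-1, -0.11 ± 0.38, adjusted p = 0.843). Of these 8 genes 3 have over 10 kb of exon, against 50 of 12343 tested genes, and the others have 1.05 to 8.21 kb. The part of length in this likeness was not tested.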
